A study of Mus musculus with 57 samples.

Results

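The 9 genes described here encode parts of the JAK-STAT pathway and its feedback inhibitors. They are the kinases Jak2 and Jak3, the transcription factors Stat2, Stat3 and Stat6, the inhibitors Socs1, Socs3 and Cish, and the kinase Pim1. They were taken by symbol, and all 9 were found among the 50565 genes of the sex experiment and the 53278 genes of the LPS experiment. The series asks how loss of P2RY12, a nucleotide receptor of resting microglia, changes their transcriptome. Bulk RNA sequencing of polyadenylated RNA was done on CD11b-positive microglia from brains of adult mice, either wild type (WT) or littermates deficient in P2RY12 (KO).

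The sex experiment covered 18 animals, with 4 WT and 5 KO in each sex, and its labels list no treatment for them. In the LPS experiment 33 libraries carried the label LPS (9 WT and 8 KO) or ns (8 of each genotype). LPS, a bacterial cell-wall lipid that provokes inflammation, was injected intraperitoneally at a dose of 1 mg/kg. What ns stands for is not defined, and the labels give neither the time after LPS nor the sex of these animals. They do not state how P2RY12 was removed or whether each LPS library came from an animal of its own. The p-values there measure the spread between these libraries, which may be technical. CD11b is shared by microglia, neutrophils and monocytes, so the gate could hold all of them. All 7 measured microglia markers of the sex experiment and all 8 of the LPS experiment were above 0 in every library. In such bulk samples fewer cells of a type and less RNA per cell cannot be told apart.

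Cytokine and interferon receptors lack a kinase of their own and carry JAK kinases, which phosphorylate STAT proteins after the ligand binds. STAT dimers then enter the nucleus and bind short palindromic sites, whereas complexes that hold STAT2 and IRF9 bind interferon-stimulated response elements. SOCS proteins and CISH are induced by STATs and block the receptor or the kinase, which closes a negative feedback loop. In microglia and other macrophages, LPS engages this pathway through cytokines and type I interferon that the cells release, and SOCS1 and SOCS3 limit inflammatory signalling.

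The start regions of the members were searched for 2 motifs, because they are the letters that STAT dimers and complexes with STAT2 and IRF9 are known to bind. The windows ran from 250 bases before to 50 after the start site (RefSeq, build GRCm38.p6), and both strands were read. TTCNNNGAA was found in the windows of Socs3 and Cish and in 8.3% of the 32851 windows of that table. The second motif, GAAA followed by 2 bases of any kind and again GAAA, was found in the windows of Socs1 and Stat2 and in 3.44% of all windows. The windows of Stat3, Stat6, Jak2, Jak3 and Pim1 held neither string of letters. The stretches around the matches are printed 5′ to 3′ in the direction of the gene, with the motif in capitals. A match is a description of sequence and no evidence of binding. Socs1 is shown from base -143 to base -8 of the start site, at chr16:10785544-10785679 on the minus strand. It holds 2 overlapping copies, at -83 and -77.
Socs1: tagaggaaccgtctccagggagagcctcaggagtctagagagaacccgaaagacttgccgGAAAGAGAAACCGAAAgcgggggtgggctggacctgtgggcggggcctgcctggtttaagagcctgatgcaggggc
Socs3 is shown from -214 to -86, at chr11:117969452-117969580 on the minus strand, with its motif at -154.
Socs3: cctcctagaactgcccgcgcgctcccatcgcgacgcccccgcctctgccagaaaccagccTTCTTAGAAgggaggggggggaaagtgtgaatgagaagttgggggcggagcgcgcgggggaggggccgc
Cish is shown from -60 to 25, at chr9:107296599-107296683 on the plus strand, with its 2 motifs at bases 1 and 12.
Cish: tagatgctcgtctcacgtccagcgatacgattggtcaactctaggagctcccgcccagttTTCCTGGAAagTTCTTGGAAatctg
Stat2 is shown from -250 to -153, at chr10:128270248-128270345 on the plus strand. Its motif at -222 lies on the other strand and so reads TTTC, 2 bases, TTTC.
Stat2: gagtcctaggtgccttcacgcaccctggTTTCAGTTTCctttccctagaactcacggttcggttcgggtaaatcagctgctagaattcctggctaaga

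Some libraries stood apart and bear on each value below. Totals were 58.5 to 318.5 M counts in the sex experiment and 15.9 to 168.4 M in the LPS experiment (M stands for mega). P2ry12, the targeted gene, was at 3007 to 5928 CPM in WT and at 309.3 to 526.4 in KO animals of the sex experiment, where CPM is counts per M counts of the scaled library total. In the LPS experiment it was at 585.2 to 1243 CPM in KO ns and at 84.24 to 154.1 in KO LPS. The 4 WT libraries whose names end in library number 2 went against their treatment labels. Saa3, an acute-phase gene, was at 1781 and 2491 CPM in WT ns 1 and WT ns 5, as labelled, and at 1.592 and 3.209 in those labelled WT LPS 1 and WT LPS 6. The other WT ns libraries had 1.523 to 64.35 CPM and the other WT LPS libraries 1418 to 9720. P2ry12 was at 481 and 927.4 CPM in WT ns 1 and WT ns 5 against 3516 to 5406 in the other WT ns libraries, and at 4461 and 12150 in WT LPS 1 and WT LPS 6 against 400.3 to 1063 in the other WT LPS samples. Most of the latter thus lay below the KO ns libraries, so P2ry12 tells the genotypes apart only within a treatment. Apart from this, 6 libraries had a shifted base composition (WT ns 5, WT LPS 6, WT LPS 7, KO ns 5, KO ns 6 and KO LPS 5). All 6 belong to library set 2, which holds the samples numbered 5 and above of each group, while samples 1 to 4 form set 1. Genes with transcripts under 45% GC took 32.63% to 41.55% of protein-coding counts in these 6, against 17.06% to 24.55% elsewhere. WT LPS 8 and WT LPS 9 differed by little more than counting noise and were counted as 1 sample, so 32 samples were tested. Results are therefore given with all samples, and also without these libraries: 7 KO LPS, 6 KO ns, 5 WT LPS and 6 WT ns samples are left when both kinds are removed.

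**Figure D1:**
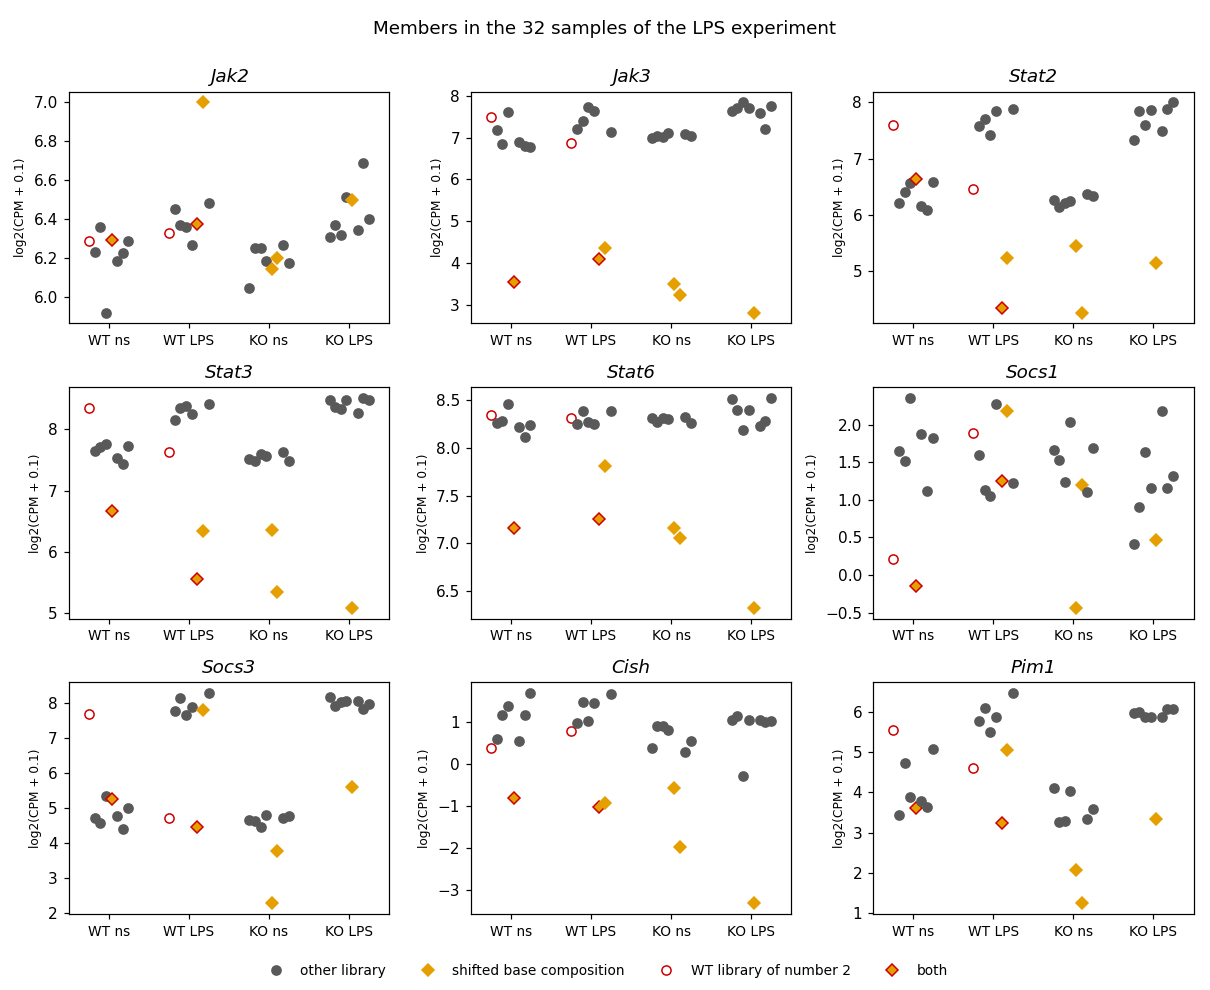
Levels of the 9 genes in each library of the LPS experiment (y axis, log2 of CPM + 0.1; each point is 1 sample), by group on the x axis, with libraries of shifted composition and WT libraries of number 2 marked. Socs3 lay at 227 to 289 CPM in the 7 KO LPS libraries of ordinary composition and at 22 to 27.8 in the 6 such KO ns libraries.

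In KO microglia the library label LPS went with higher Socs3, Pim1, Stat2 and Stat3. These 4 of 9 members were called higher in KO LPS against KO ns, against 12% of the 14796 genes tested (edgeR's quasi-likelihood test, called where the Benjamini-Hochberg adjusted p was under 0.05). DESeq2 called 5 members higher, beside 2090 of 14682 genes called higher. No member was called lower. The median log2 fold change of the 9 was 0.87, beside 0.016 over all genes. Without the 3 KO libraries of shifted composition 6 of 9 were called higher, with Jak2 and Jak3 added, against 30.9% of all genes. The median of the 9 was then 0.65, beside 0.021.

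Socs3, the feedback inhibitor of receptors that signal through the shared gp130 chain, had the largest difference of the 9. Its level in the 8 KO ns libraries was lowest at 4.74 CPM, with a median of 24.8 and a highest value of 27.8. In the 8 KO LPS libraries the lowest was 48.4, the median 258 and the highest 289. Each KO LPS library was above each KO ns library. The 2 lowest KO ns values (4.74 and 13.6) and the lowest KO LPS value came from libraries of shifted composition. The log2 fold change was 3.47 ± 0.34 (SE, adjusted p = 1.8e-06), a fold of 11.1. Without the 3 shifted libraries it was 3.38 ± 0.08 (adjusted p = 5.24e-12), from 25.5 ± 2.12 CPM (SD, n = 6) to 258 ± 19.7 (SD, n = 7). Over all genes, 3.83% had KO LPS wholly above KO ns, and Socs3 was the 1 member among them.

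Pim1, a serine/threonine kinase that STAT3 and STAT5 induce, rose by 2.53 ± 0.36 on the log2 scale (SE, adjusted p = 8.29e-05), a fold of 5.78. The KO ns libraries had a lowest value of 2.28 CPM, a median of 9.91 and a highest of 17.1. The KO LPS libraries had 9.99, 60.6 and 66.6 in the same order. Only the shifted library KO LPS 5, at 9.99, fell into the KO ns range. Without the shifted libraries the levels were 12.5 ± 3.43 CPM (SD, n = 6) and 62 ± 3.68 (SD, n = 7), with a log2 fold change of 2.35 ± 0.16.

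Stat2, which works with IRF9 in the type I interferon response, rose by 1.58 ± 0.32 (log2, SE, adjusted p = 0.0016), a fold of 2.98. Its KO ns values were 19.2 CPM at the lowest, 74.8 at the median and 82.4 at the highest. In KO LPS they were 35.5, 211 and 256. The group ranges overlapped through KO LPS 5 alone, and the other 7 KO LPS libraries were at 160 CPM or more. Without the shifted libraries the fold was 2.82 (adjusted p = 2.04e-08), from 76.6 ± 4.47 CPM (SD, n = 6) to 212 ± 34.7 (SD, n = 7).

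Stat3, which carries signals of IL-6 and IL-10, had an adjusted p at the edge of the threshold with all KO libraries (log2 fold change 1.01 ± 0.36, SE, adjusted p = 0.05). The KO ns libraries held 40.4 CPM at the lowest, 182 at the median and 198 at the highest, and the KO LPS libraries 33.8, 342 and 367. KO LPS 5 was below every KO ns library, while the other 7 KO LPS libraries were above all of them. Without the shifted libraries the log2 fold change was 0.91 ± 0.05 (adjusted p = 7.76e-09), from 187 ± 8.1 CPM (SD, n = 6) to 342 ± 22.6 (SD, n = 7). The call was lost in 5 of 11 alternatives, among them RLE scaling (adjusted p = 0.0575), no filter (0.0873), no library set covariate (0.0604) and library set 2 alone (0.649). Over all 11 the adjusted p ran from 7.76e-09 to 0.649.

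The kinases moved less. Jak2, which serves receptors of IFN-γ, GM-CSF and leptin, was at 66.1 CPM at the lowest, 73.2 at the median and 77 at the highest in KO ns. In KO LPS it was at 79.3, 83.6 and 103. On this scale the ranges did not overlap, though they did when only the KO libraries set the scaling. The log2 fold change was 0.27 ± 0.11 (SE, adjusted p = 0.0714), and 0.26 ± 0.06 without the shifted libraries (adjusted p = 0.00161).

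Jak3, which pairs with the common γ chain of the receptors for IL-2, IL-4 and IL-15, had 9.33 CPM at the lowest, 130 at the median and 137 at the highest in KO ns. KO LPS had 6.91, 204 and 230. The 3 shifted KO libraries held the lowest values (11.2, 9.33 and 6.91). With all libraries the log2 fold change was 0.87 ± 0.55 (SE, adjusted p = 0.296). Without the shifted libraries it was 0.65 ± 0.08 (adjusted p = 1.07e-05), from 132 ± 4.07 CPM (SD, n = 6) to 201 ± 26.5 (SD, n = 7).

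Stat6, Socs1 and Cish did not pass the test in KO microglia, with or without the shifted libraries. Stat6, the mediator of IL-4 and IL-13, went from a median of 312 CPM in KO ns to 324 in KO LPS, with a log2 fold change of 0.18 ± 0.24 (SE, adjusted p = 0.656). Socs1, which inhibits JAK kinases downstream of interferon receptors, had medians of 2.52 CPM in KO ns and 2.12 in KO LPS, on 19 to 169 counts a library. Its log2 fold change was -0.08 ± 0.33 (SE, adjusted p = 0.896). Cish, a STAT5-induced inhibitor, had medians of 1.28 and 1.94 CPM and a log2 fold change of 0.46 ± 0.50 (SE, adjusted p = 0.576). It had 0 counts in KO LPS 5, which allows up to 0.128 CPM at 3 counts, an upper limit that covers counting error only. The printed motif matches thus belonged to genes of both kinds, those that were called (Socs3, Stat2) and those that were not (Socs1, Cish).

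Without the shifted libraries, 6 members had every KO LPS library above every KO ns library (Stat2, Stat3, Jak2, Jak3, Socs3 and Pim1), against 19% of all genes tested. Summed neutrophil markers were at 287.2 to 10150 CPM in KO ns and 990.4 to 4335 in KO LPS, with 0 of 8 called. Of 8 microglia markers 4 were called lower in KO LPS, against 11.9% of all genes, and their summed level was 22270 to 47930 CPM in KO ns against 11590 to 21990 in KO LPS. Of 11 immediate early genes, which tissue dissociation can induce, 2 were called higher and 2 lower, against 12% and 11.9% of all genes. The part of these markers in the members' differences was not tested.

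**Figure D2:**
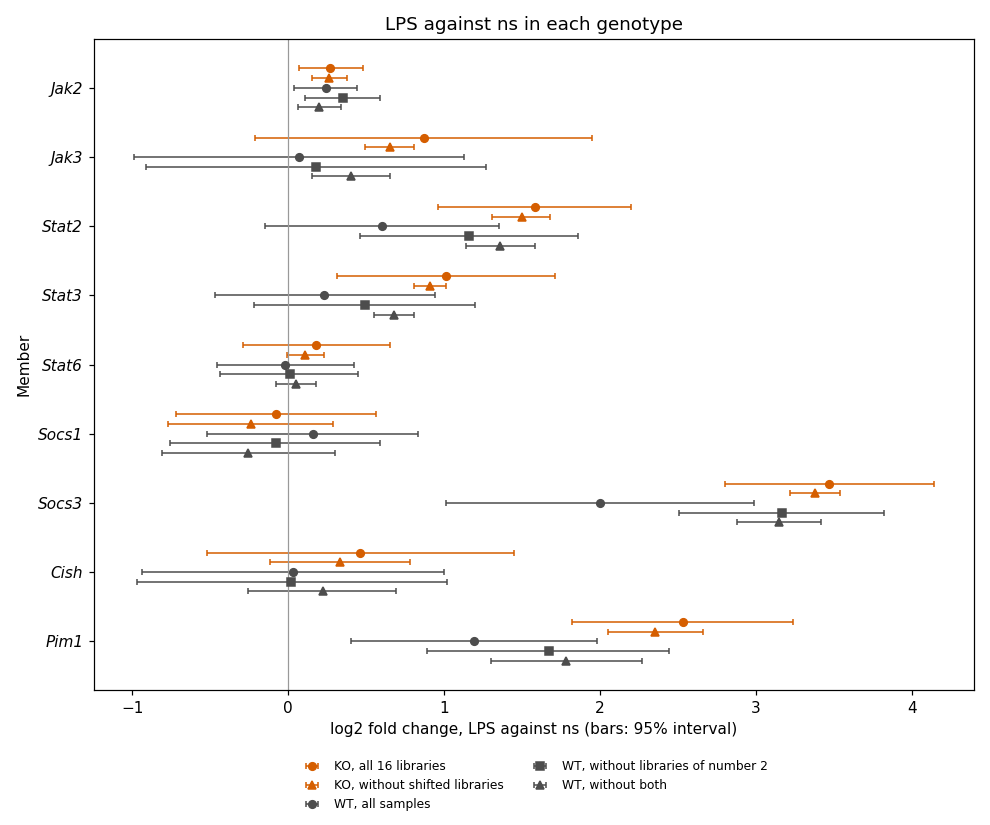
Log2 fold change of LPS against ns with 95% intervals for each member in KO and in WT, with all samples and without the libraries that stand apart. Socs3 is the farthest from 0 in KO, at 3.47 with all libraries and 3.38 without the shifted ones.

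In WT microglia no member and no gene at all (0% of 15857) was called in LPS against ns when each library kept its label. At an unadjusted p under 0.05 there were 3 of 9 members, beside 3605 of the 15857 genes. DESeq2 called 2 members, Socs3 and Pim1, both higher, beside 322 of 15835 genes called higher. Without the 4 WT libraries of number 2, Socs3, Pim1, Stat2 and Jak2 were called higher, 4 of 9 against 15.5% of genes. Without those and the shifted libraries, 6 of 9 were called higher (Socs3, Pim1, Stat2, Stat3, Jak3 and Jak2) against 26.3%. The libraries of number 2 stand out by genes that differ between LPS and ns, so leaving them out favours calls here.

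Socs3 shows how the labels of number 2 bear on this comparison. The 6 other WT ns libraries had 21.1 CPM at the lowest, 26.8 at the median and 40.4 at the highest. The 6 other WT LPS samples had 202, 230 and 314. The library labelled WT ns 1 had 208 CPM and that labelled WT ns 5 had 37.9, whereas those labelled WT LPS 1 and WT LPS 6 had 26.3 and 21.7. WT ns 1 therefore lay in the range of the other WT LPS samples, and WT LPS 1 in that of the other WT ns libraries. The log2 fold change was 2.00 ± 0.51 with all samples (SE, adjusted p = 0.095), 3.17 ± 0.33 without number 2 (5.77e-08) and 3.15 ± 0.14 without both kinds (3.69e-14).

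Pim1 in WT went the same way. Among the other WT ns libraries the lowest was 10.7 CPM, the median 14.2 and the highest 33.8, and the other WT LPS samples had 32.9, 56.6 and 88.3. Those labelled WT ns 1 and WT ns 5 were at 46.9 and 12.2, and those labelled WT LPS 1 and WT LPS 6 at 24.2 and 9.39. The log2 fold change was 1.19 ± 0.40 with all samples (SE, adjusted p = 0.13), 1.67 ± 0.40 without number 2 (0.00203) and 1.78 ± 0.25 without both kinds (3.03e-06).

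For Stat2 the other WT ns libraries lay at 67.6 to 96.3 CPM, and WT ns 1 at 194. The 5 WT LPS samples left without both kinds were at 170 to 236 CPM, and WT LPS 1 was at 87.9. Its log2 fold change was 0.60 ± 0.38 with all samples (SE, adjusted p = 0.338) and 1.36 ± 0.11 without both kinds (6.98e-10). Stat3 likewise was at 172 to 218 CPM in the other WT ns libraries, at 325 in WT ns 1, at 284 to 341 in the 5 WT LPS samples and at 199 in WT LPS 1. Its log2 fold change was 0.23 ± 0.36 with all samples (SE, adjusted p = 0.723) and 0.68 ± 0.07 without both kinds (1.11e-08). In both genes WT ns 1 was the highest WT ns library.

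Jak3 changed by 0.07 ± 0.54 on the log2 scale with all WT samples (SE, adjusted p = 0.952) and by 0.40 ± 0.13 without both kinds (0.0112). In the latter the WT ns range of 109 to 194 CPM overlapped the WT LPS range of 141 to 213. Jak2 changed by 0.24 ± 0.10 with all samples (SE, adjusted p = 0.167) and by 0.20 ± 0.07 without both kinds (0.0243), and its ranges of 60.5 to 82.1 and 77 to 89.5 CPM overlapped too. Stat6, Socs1 and Cish were not called in any of these WT fits. Without both kinds their log2 fold changes were 0.05 ± 0.07, -0.26 ± 0.29 and 0.22 ± 0.24 (SE), with an adjusted p of 0.468 for Socs1 and 0.47 for Cish. Without both kinds, 4 members (Socs3, Pim1, Stat2 and Stat3) had WT LPS wholly above WT ns, against 16.1% of genes. Without number 2 alone these were 2 members, Socs3 and Pim1, against 11.5%, and with all samples 0, against 0%. Of 8 microglia markers 7 were called lower without both kinds, and of 8 neutrophil markers 2 were called lower, against 27.8% of all genes. The part of these markers was not tested.

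The other genes of the pathway were counted from lists set by known function. Among the other JAKs and STATs, Stat4, the mediator of IL-12, fell by 1.59 ± 0.38 on the log2 scale in KO LPS against KO ns (SE, adjusted p = 0.00532). In WT without both kinds of libraries it was at -1.61 ± 0.44 (adjusted p = 0.00392) and was called too.

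Among 14 other SOCS proteins, PIAS proteins and phosphatases, 3 were called higher and 1 lower (median 0.14). Usp18, which blocks the type I interferon receptor, rose by 2.22 ± 0.32 (log2, SE, adjusted p = 8.06e-05), from 6.33 to 23.8 CPM in KO ns to 26.5 to 117 in KO LPS. Ptpn6, the phosphatase SHP-1, rose by 0.65 ± 0.15 (adjusted p = 0.00432). Socs6 fell by 0.73 ± 0.17 on the log2 scale (adjusted p = 0.00452). Within the SOCS family, Socs3 rose, Socs6 fell and Socs1 was not called.

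Of 21 cytokine receptors 19 passed the filter, and 8 of them were called higher and 0 lower (median 0.17). Il2rg, the common γ chain that binds JAK3, rose by 2.74 ± 0.21 (log2, SE, adjusted p = 1.8e-07), from 5.46 to 12.8 CPM in KO ns to 51.3 to 100 in KO LPS. Il15ra, the receptor chain that presents IL-15, rose by 2.58 ± 0.25 (adjusted p = 1.66e-06). Both were also called in WT without both kinds, at 2.23 ± 0.14 and 3.24 ± 0.22.

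Of 13 ligands only 6 passed the filter, with 1 called higher and 2 lower (median -0.35). Il12b, a subunit of IL-12 and IL-23, was at 0 to 0.379 CPM in KO ns and at 0.983 to 13.7 in KO LPS. Its fitted log2 fold change was 4.77 ± 0.62 (SE, adjusted p = 3.12e-05) and rests on few counts in KO ns. Il6, whose receptor signals through STAT3, fell by 2.26 ± 0.36 on the log2 scale (adjusted p = 0.000205), from 8.18 to 30.4 CPM in KO ns to 0.961 to 8.32 in KO LPS. In WT it was at 0.65 with all samples and at -1.20 ± 0.19 without both kinds (adjusted p = 1.28e-05). Il4, the ligand upstream of STAT6, fell by 1.18 ± 0.24 on the log2 scale (adjusted p = 0.00167). Its levels were low, at 1.21 to 2.81 CPM in KO ns and 0.571 to 1.15 in KO LPS. It was called in 10 of 11 alternatives, with a highest adjusted p of 0.149. In WT it was at -0.12 with all samples and at -1.36 ± 0.21 without both kinds (adjusted p = 9.72e-06).

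Of 13 other genes that STATs are known to induce, 11 were called higher and 0 lower in KO LPS (median 0.85). Bcl3, a coactivator of NF-κB, rose by 3.47 ± 0.51 (log2, SE, adjusted p = 0.000108), and Irf9, the DNA-binding partner of STAT2, by 0.85 ± 0.12 (5.17e-05). With all WT samples 0 of 13 were called, and without both kinds 12 were called higher and 0 lower (median 1.04). In that WT fit 26.3% of all genes were called higher and 27.8% lower. These lists share the samples of the members' comparison, and the counts are read beside the 12% of all genes called higher and the 11.9% called lower in KO.

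No member passed the test between KO and WT in the LPS experiment. At ns, 0 of 9 members were called, against 0.114% of genes with all samples and 0.348% without both kinds. At LPS 0 of 9 were called as well, against 0.126% and 0.28%. Unadjusted p-values were under 0.05 for 2 members at ns and 0 at LPS, and for 1360 and 1170 of the 15857 genes. DESeq2 called 0 members in each, and 157 and 135 of 15835 genes. No member had the genotypes wholly apart at ns (0.24% of genes did with all samples, 1.51% without both kinds) or at LPS (0.0413% and 1.21%).

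The intervals give the spread around each estimated difference, at 1.96 SE on either side. At ns, Socs3 in KO against WT was at -1.21 on the log2 scale with all samples (95% interval -2.17 to -0.24, adjusted p = 0.515), where the WT group holds WT ns 1 at 208 CPM. Without both kinds it was at -0.17 (-0.42 to 0.08). Pim1 was at -1.10 with all samples (-1.89 to -0.31, adjusted p = 0.434) and at -0.55 without both kinds (-1.02 to -0.08, adjusted p = 0.364), with means of 12.5 ± 3.43 CPM in KO (SD, n = 6) and 18.6 ± 9.31 in WT (SD, n = 6). The highest Pim1 values of that WT group were 33.8 CPM in WT ns 8 and 26.4 in WT ns 3. Summed neutrophil markers were at 16060 and 17260 CPM there, against 318.4 to 3541 in the rest of that group. KO ns 1 and KO ns 4, at 17.1 and 16.4 CPM of Pim1, had 6188 and 7370. The part of these markers in the Pim1 difference was not tested. Cish was at -0.52 without both kinds (-0.98 to -0.05, adjusted p = 0.381). The other 6 members were within 0.19 of 0 at ns without both kinds.

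Under LPS, Socs3 was at 0.23 in KO against WT with all samples (95% interval -0.71 to 1.18) and at 0.03 without both kinds (-0.21 to 0.28, adjusted p = 0.958). The group means without both kinds were 258 ± 19.7 CPM in KO (SD, n = 7) and 251 ± 46.7 in WT (SD, n = 5). Jak3 was at 0.20 without both kinds (-0.04 to 0.44, adjusted p = 0.57). Pim1, Stat2, Stat6 and Jak2 were within 0.05 of 0 in that fit. Cish without both kinds was at 1.79 ± 0.479 CPM in KO (SD, n = 7) and 2.44 ± 0.521 in WT (SD, n = 5). In the same order Socs1 was at 2.45 ± 1.04 and 2.8 ± 1.15, and Stat3 at 342 ± 22.6 and 317 ± 23.3. For Socs3 the order of the 4 group means without both kinds was KO ns, WT ns, WT LPS, KO LPS, and neighbours of the same treatment did not differ beyond their spread.

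Whether the LPS difference depended on genotype was tested by an interaction term, and 0 of 9 members were called, against 0% of genes with all samples and 0.00622% (1 gene) without both kinds. Socs3 had an interaction of 1.44 ± 0.69 with all samples (log2, SE, adjusted p = 0.459) and of 0.20 ± 0.18 without both kinds (95% interval -0.15 to 0.56, adjusted p = 0.976). Pim1 had 1.30 ± 0.56 (adjusted p = 0.438) and 0.52 ± 0.34 (-0.14 to 1.18, adjusted p = 0.976). DESeq2 called 0 members here, and 11 of 15835 genes. With all samples 2 members had an unadjusted p under 0.05, as did 1698 of 15857 genes.

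**Figure D3:**
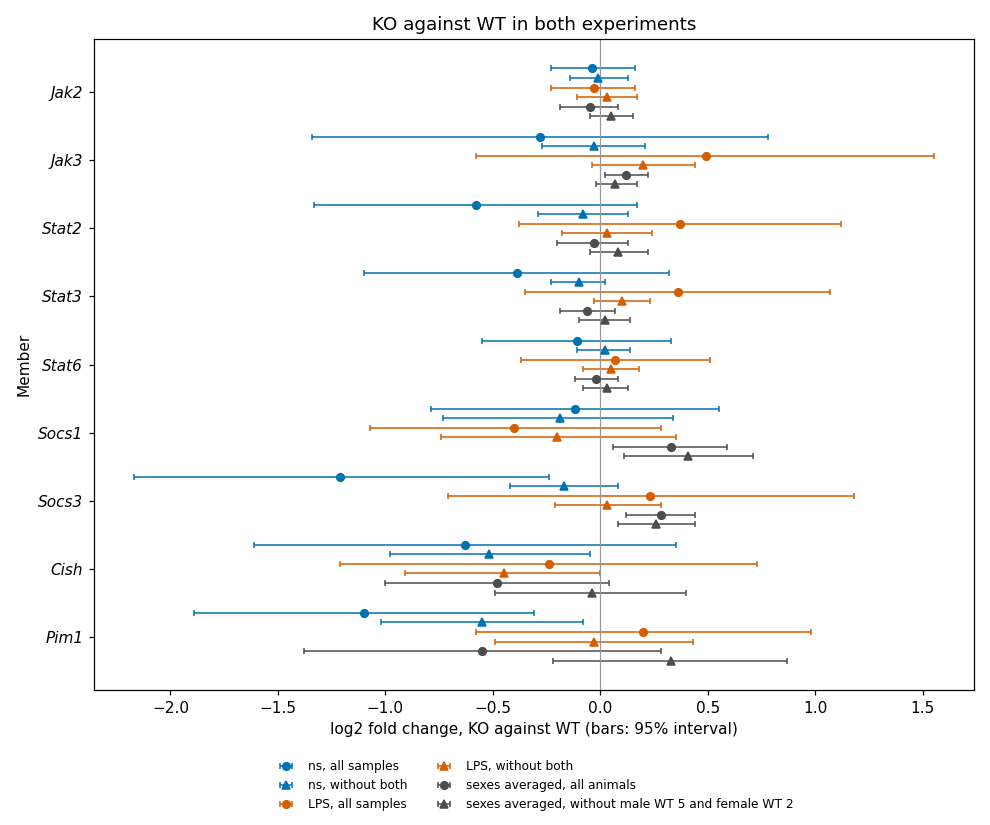
Log2 fold change of KO against WT for each member with 95% intervals, at ns and at LPS in the LPS experiment and averaged over the sexes in the sex experiment, with all samples and without those that stand apart. No member was called in any of these fits, and Socs3 at ns moves from -1.21 with all samples to -0.17 without both kinds of libraries.

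In the sex experiment 0 of 9 members were called in KO against WT averaged over the sexes, against 0.432% of 31709 genes. The count was also 0 in males (0.00946% of genes), in females (0.164%) and for the sex-by-genotype interaction (0%). Unadjusted p-values were under 0.05 for 3, 1, 2 and 1 members in that order, and for 2860, 2171, 1655 and 879 of the 31709 genes. DESeq2 called 1 member, Socs1 in females, beside 213 of 20498 genes there, and 0 members in the other 3 contrasts.

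Socs3 was higher in KO by 0.28 ± 0.08 on the log2 scale over both sexes (SE, adjusted p = 0.194). The 4 male WT animals had 102, 94.7, 93.2 and 94.8 CPM and the 5 male KO animals 123, 99.5, 120, 98.7 and 97.4. The 4 female WT animals had 98.8, 102, 129 and 114 CPM and the 5 female KO animals 107, 145, 152, 167 and 162. Female KO 1, at 107, was the lowest of its group and lay among the WT values, while the other 4 were above each female WT animal. In females the log2 fold change was 0.40 ± 0.11 (adjusted p = 0.267) and in males 0.16 ± 0.11 (adjusted p = 0.827). Leaving out female KO 1, the lowest KO value of the females, brought Socs3 past the threshold. It was then at 0.32 ± 0.06 over both sexes (adjusted p = 0.0169) and 0.49 ± 0.09 in females (adjusted p = 0.0247). This was the 1 call of Socs3 among 23 alternatives over both sexes, where the adjusted p reached 0.365. In females it was 1 of 24, where the adjusted p reached 0.781.

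Socs1 differed between the genotypes in females by 0.65 ± 0.19 (log2, SE, adjusted p = 0.313 with edgeR). DESeq2 gave 0.66 with an adjusted p of 0.031. The female KO animals had 2.04, 2.99, 2.14, 2.41 and 3.19 CPM and the female WT animals 1.38, 1.83, 1.96 and 1.33. Every female KO animal was above every female WT animal, as was the case for 1.79% of genes. The male KO animals, at 1.57, 1.79, 1.72, 1.76 and 2 CPM, overlapped the male WT animals, at 1.9, 1.57, 1.5 and 2.11. No member had the genotypes wholly apart in males, against 2.09% of genes. The sex-by-genotype interaction of Socs1 was 0.66 ± 0.27 (unadjusted p = 0.0233, adjusted p = 0.999).

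In Pim1 a pair of WT animals stood far above the rest. Male WT 5 had 134 CPM and the other male WT animals 25.6, 30.7 and 33.8. Female WT 2 had 117 CPM and the other female WT animals 18.3, 32.2 and 32.9. The male KO animals lay at 24.6 to 38.8 CPM, and the female KO animals had 21.5, 28.9, 27.5, 75.4 and 62.6. Over both sexes the log2 fold change was -0.55 ± 0.42 (SE, adjusted p = 0.813) with all animals and 0.33 ± 0.28 (adjusted p = 1) without male WT 5 and female WT 2. Summed markers of neutrophils were at 48210 CPM in male WT 5 and 28620 in female WT 2, against 720 to 7667 in the other 16 animals, and all 8 markers were above 0 in every library. Monocyte markers summed to 3913 and 2165 CPM in these animals, against 132.6 to 711.9. Female KO 4 and 5, at 75.4 and 62.6 CPM of Pim1, had summed neutrophil markers of 5401 and 2901. The part of these markers in the Pim1 levels was not tested.

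Cish was at 2.83 CPM in male WT 5 and 2.89 in female WT 2, the highest values of their groups. Its log2 fold change over both sexes was -0.48 ± 0.27 (SE, adjusted p = 0.632) with all animals and -0.04 without this pair. Male WT 5 also had the highest Stat3 (212 CPM), Stat2 (66.7), Stat6 (246) and Jak2 (113) of the male WT animals. Female WT 2 had the highest of the female WT animals for the same genes, at 194, 55.3, 223 and 93.7 CPM. Over both sexes Stat2, Stat3, Stat6 and Jak2 were within 0.06 of 0, and Jak3 was at 0.12 ± 0.05 (SE, adjusted p = 0.515). Jak3 was at 43.4 to 53.2 CPM in male WT, 51.4 to 56.5 in male KO, 46.5 to 57.5 in female WT and 52 to 55.3 in female KO. Male WT 5 and female WT 2 held the lowest Jak3 of their groups, at 43.4 and 46.5 CPM. Without this pair the WT means were 50.1 CPM in males and 53 in females, beside 54.1 and 54.3 in KO.

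**Figure D4:**
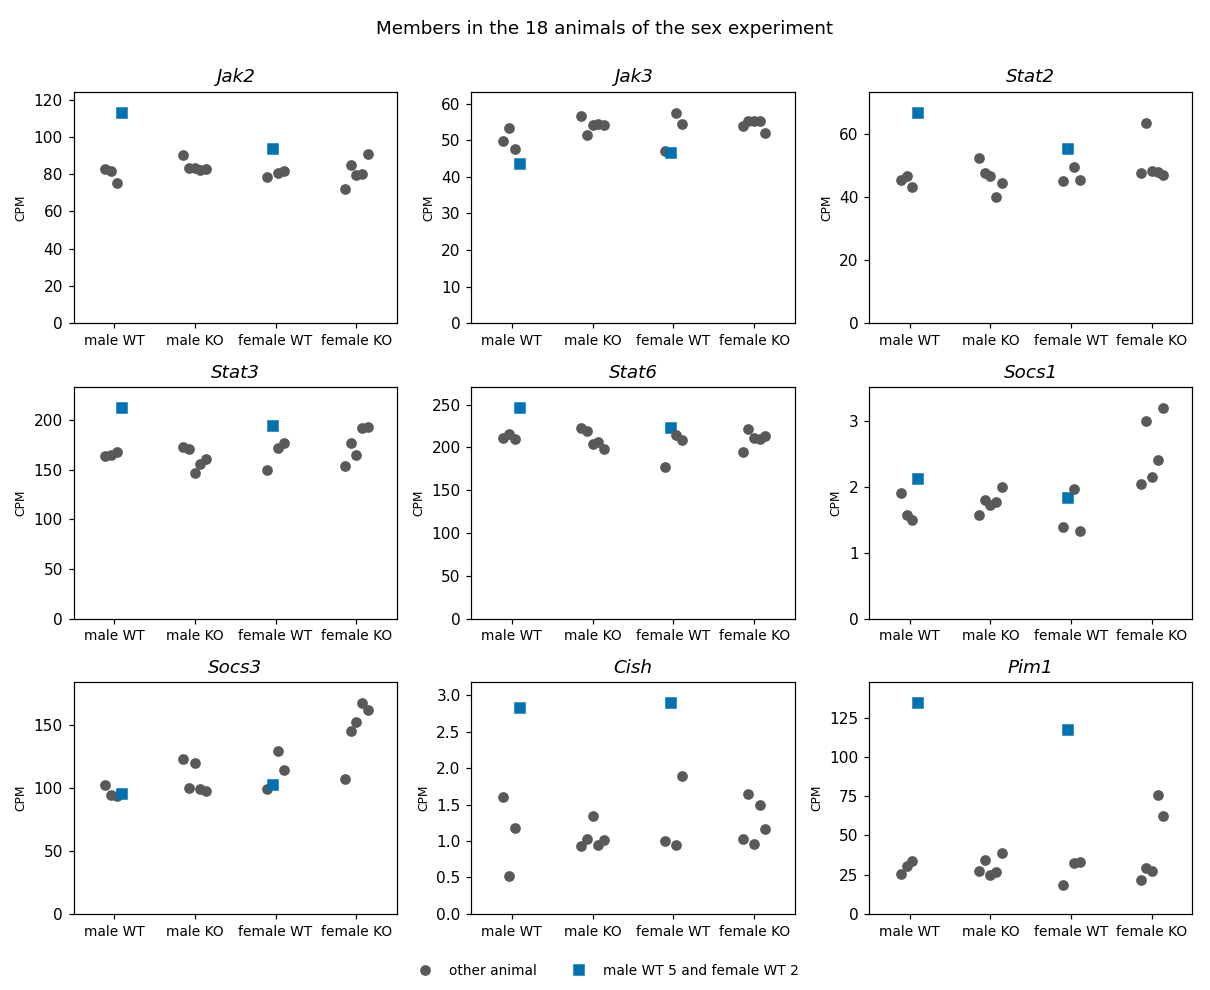
Levels of the 9 genes in each of the 18 animals of the sex experiment (y axis, CPM from 0), by group on the x axis; each point is 1 animal. Male WT 5 (134 CPM) and female WT 2 (117 CPM) stand above all other animals for Pim1.

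The counting of the sex experiment bears on its values. Low counts there were mostly even (79% to 89.2% per library, where the LPS table had 39.7% to 45.6%), and what this does to its p-values was not tested. Its table counts the whole span of each gene, introns included, and gives no strand rule, so genes that overlap a member can share its reads. On build GRCm39, Jak2 lies at chr19:29229006-29290495 on the plus strand and Stat3 at chr11:100777632-100830447 on the minus strand. Stat6 (chr10:127478855-127496856, plus strand) overlaps Nab2 and Gm30989, whose own counts came to 12.2% and 18.4% of those of Stat6. Counts of Gm26885 were 13.8% of those of Pim1 (chr17:29709759-29715085, plus strand), and counts of Gm46295 were 12.7% of those of Stat3. Insl3 stood at 6.99% of Jak3 (chr8:72129027-72143221, plus strand) and Apof at 3.28% of Stat2 (chr10:128106367-128128722, plus strand). Socs1 (chr16:10601672-10603400, minus strand), Socs3 (chr11:117856905-117860192, minus strand) and Cish (chr9:107173858-107179983, plus strand) overlapped no other listed gene.

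The 6 libraries of shifted composition touched the members unequally. In KO ns, the ratio of shifted to other libraries on the log2 scale was -3.67 for Jak3 (10.3 against 132 CPM) and -0.03 for Jak2. In KO LPS it was -4.84 for Jak3 (6.91 against 201 CPM) and 0.07 for Jak2. The transcript GC content was 61.1% for Jak3, the highest of the 9, and 44.3% for Jak2, the lowest. Socs1, at 58.8%, had -0.97 in KO ns and -0.88 in KO LPS, on 19, 29 and 30 counts in the shifted KO libraries. Stat3, at 52.5%, had -1.62 and -3.33. Each KO LPS ratio rests on 1 shifted library. Socs3, at 58.7%, had -1.47 and -2.41 in KO, while its 225 CPM in the shifted library WT LPS 7 lay among the other WT LPS samples. For Jak3, Stat3, Stat2, Stat6, Cish, Pim1 and Socs1 the shift in KO LPS 5 was larger than the log2 difference between KO LPS and KO ns. The cause of the shift was not tested.

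**Figure D5:**
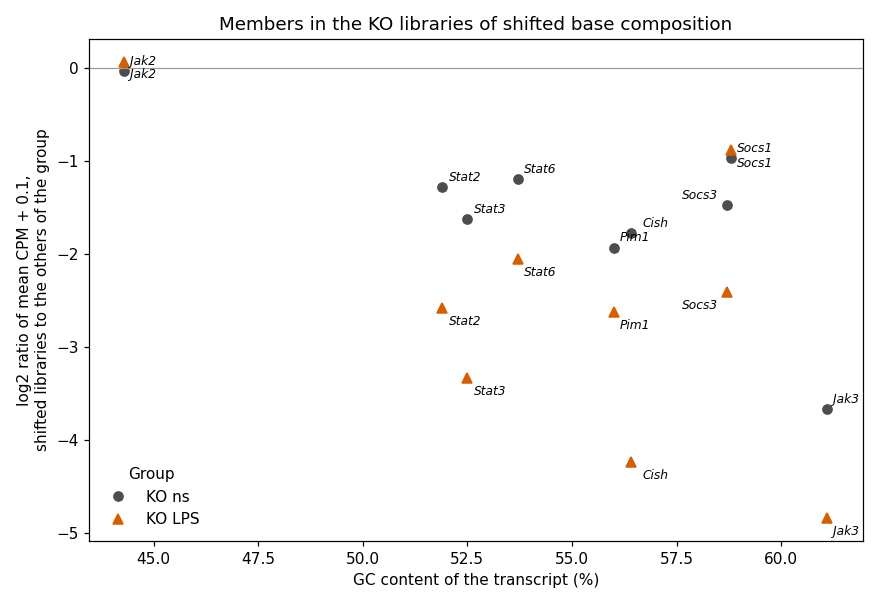
Log2 ratio of the level in shifted libraries to that in other libraries of the same group (y axis) against transcript GC content in percent (x axis) for the 9 members, in KO ns and KO LPS. Jak2 (44.3% GC) lies at -0.03 and 0.07, and Jak3 (61.1% GC) at -3.67 and -4.84.

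The genes whose levels followed a member most closely within groups were taken by Pearson's r of log2 levels. Group means were subtracted first, and in the LPS experiment library set means too, so differences between groups do not enter r. This is a description, since the samples share libraries, depth and base composition. Over the 18 animals of the sex experiment, Pim1 was most like Ezr (r = 0.975), Jak2 most like Usp15 (0.974), Stat6 most like Flii (0.961) and Stat3 most like Ftl1-ps1 (0.959). Stat2 was most like 9430060I03Rik (0.935), Socs3 most like Gm33370 (0.911) and Jak3 most like Cul9 (0.908). Cish was most like Ppil1 (0.888) and Socs1 most like 2310011J03Rik (0.812). Among the members themselves Stat3 and Pim1 were alike (0.897). Male WT 5 and female WT 2 held the highest Pim1 and the highest Stat3 of their groups. No r of the sex experiment was taken without them, so their weight in these values was not tested. Over the 16 KO libraries of the LPS experiment Jak3 was most like Anks1 (0.999, and 0.946 without the 3 shifted libraries) and Stat3 most like Nelfb (0.997 and 0.584). The likeness of Stat2 and Stat3 within groups went from 0.978 to 0.38 without the shifted libraries, so much of it rested on these 3. Their shared difference between KO LPS and KO ns is not part of these values.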

How the data were processed

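For each experiment the authors deposited gene-level counts, whole numbers with no normalization. FastQC, STAR 2.6.1, featureCounts, DESeq2 and the build GRCm39 are named in the submitters' processing notes, and other settings are not given in the sources used here. The tables were counted in different ways and were not fitted together. Column names gave the samples, with 0 columns unmatched. The 6 repeat libraries of the sex experiment lack separate columns and were not analysed on their own; whether an animal's column includes them is not given in the sources used here. Counts were filtered (filterByExpr), scaled by TMM and tested over all genes with edgeR 4.0.16 (quasi-likelihood F test, R 4.3.3), with Benjamini-Hochberg adjustment within each contrast. KO LPS against KO ns was fitted on the 16 KO libraries and the other LPS contrasts on 32 samples, with the library set as a covariate. In the sex experiment 18 animals were fitted together. Alternatives included DESeq2 1.42.0, RLE scaling, no filter and left-out animals. Leaving out the libraries of shifted composition, or male WT 5 and female WT 2, was chosen after seeing the data. The WT libraries of number 2 were set apart in the plan, with earlier results of these data known. They go against their labels in genes that differ between LPS and ns, so leaving them out favours calls in WT LPS against WT ns. The fits were also run on simulated counts with the same spread for all genes. Those counts held no libraries of shifted composition or against their labels, so they do not test the fits under such conditions. The members and gene lists were chosen with earlier results of these data known. The text names all 9 members, P2ry12 and Saa3, and from each pathway list the 2 genes called in each direction in KO LPS with the smallest p, except 1 gene that is not reported here. Genes most like a member were taken among those with a mean of at least 5 CPM.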

Additional observations from a re-analysis of the deposited data

Results flagged for a closer look

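In 72 groups of a member and a condition, 21 held a highest or lowest sample that stood apart from the rest of its group by Dixon's criterion, where chance alone gives about 1 group in 20. The library KO LPS 5, of shifted base composition, was the lowest of its group for 7 members: Socs3 at 48.4 CPM, Cish at 0, Stat2 at 35.5, Stat3 at 33.8, Stat6 at 79.8, Jak3 at 6.91 and Pim1 at 9.99. Among other libraries of shifted composition, KO ns 5 was low for Socs1 (0.638 CPM) and Socs3 (4.74), KO ns 6 for Stat2 (19.2), and WT ns 5 for Stat6 (143) and Jak3 (11.6), while WT LPS 7 was high for Jak2 (128). The library labelled WT ns 1, of number 2, was high for Socs3 (208 CPM) and Stat2 (194). WT ns 4, the deepest library, was low for Jak2 (60.5 CPM). In the sex experiment, male WT 5 was high for Stat3 (212 CPM) and Pim1 (134), male KO 3 for Cish (1.34), male KO 1 for Jak2 (90.4) and female KO 2 for Stat2 (63.4).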

How the results depend on the processing

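Members called in KO LPS against KO ns were 4, with 6 in library set 1 alone and 1 in set 2 alone. Of all genes, 7865 of 14922 were called in set 1 alone and 339 of 14967 in set 2 alone. Set 2 holds all 6 libraries of shifted composition. Socs3 was called in all 11 alternatives (log2 fold change 3.38 to 3.48), while in set 2 alone Pim1 was at 2.75 (adjusted p = 0.0848) and Stat2 at 1.57 (0.303). In WT LPS against WT ns the count of 0 became 2 with DESeq2 and 3 with no library of number 2 in any group. It was 4 without the WT libraries of number 2, 5 without the shifted libraries and 6 without both. Of all genes, 322 of 15835, 2680 of 15816, 2487 of 16088, 2658 of 15931 and 4231 of 16071 were called higher, in that order. In the sex experiment, members called with each animal left out in turn were 0 to 1 over both sexes and 0 to 1 in females, and DESeq2 called 1 in females. Some log2 fold changes in WT LPS against WT ns changed sign. Without both kinds of libraries Socs1 was at -0.26, Stat6 at 0.05 and Il6 at -1.2. Without the shifted libraries these were at -0.01, 0.05 and -0.67. Without the WT libraries of number 2 Socs1 was at -0.08 and Stat6 at 0.01. With no library of number 2 in any group Socs1 was at -0.14 and Cish at -0.02. In library set 1 alone Socs1 was at -0.17 and Il6 at -0.47. In set 2 alone Cish was at -0.03, Stat6 at 0.01 and Il4 at 0.22, and in KO LPS against KO ns Socs1 was at 0.34. Stat6 was at 0.01 with DESeq2, 0.01 with RLE scaling and 0.03 with WT LPS 8 and 9 apart. Pim1 in KO against WT was at 0.33 over both sexes and 0.01 in males without male WT 5 and female WT 2, and at -1.13 to 0.01 in males with each animal left out in turn, the latter without male WT 5. The cause was not tested.

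The labels do not say that numbers pair the samples. Deviations of same-numbered samples correlated at a mean r of 0.249 over 8 pairs of the sex experiment (7 over 0.1, lowest -0.215, other pairs -0.0569) and 0.287 over 45 pairs of the LPS experiment (34 over 0.1, lowest -0.705, other pairs 0.131). Not every pair exceeded 0.1, so the samples were not treated as paired. With the replicate block Cish, Stat3 and Jak3 in WT LPS against WT ns were at -0.06, -0.01 and -0.09, Stat3 in KO LPS was at 0.91 (adjusted p = 0.0679), and 3 members were called there. The fit with the block called 84 genes over both sexes, 5 in females and 12 in KO against WT at LPS, where the fit without it called 137, 52 and 20. Genes called ranged over the alternatives from 339 to 8832 in KO LPS against KO ns (3534 as reported), 0 to 8696 in WT LPS (0), 0 to 157 in KO against WT at ns (18), 0 to 135 at LPS (20), 0 to 11 for the interaction (0), 84 to 359 over both sexes (137), 2 to 24 in males (3) and 3 to 213 in females (52). With 1 animal left out they were 54 to 279 over both sexes and 5 to 132 in females. Socs1 and Cish rest on few counts (19 to 169 and 2 to 70 in KO ns), which limits the precision of their levels.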
